A study of Mus musculus with 4 samples.

Results

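The mucosa of A/J mice on a high-fat diet was compared with that of C57BL/6J mice on the same diet, across all genes of the array. The comparison takes 2 of the study's 4 arrays, A/J high-fat and C57BL/6J high-fat. Each array carried RNA of the intestinal mucosa of male mice, aged 10 weeks and fed the diet for 2 weeks. A group held 6 mice, and the RNA of 2 of them with body weights near the group's average was pooled for its single array. The other arrays, A/J low-fat and C57BL/6J low-fat, were made in the same way from mice on a low-fat diet and are shown beside the high-fat pair. The labels give no genetic change in either inbred strain, and they do not say which stretch of intestine was taken. With 1 pooled array a group there is no replicate check, no standard deviation and no test, and this number of arrays bounds how precise any value below can be.

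Of the strains, C57BL/6J is known to become obese on fatty diets and A/J to stay lean. Enterocytes, the absorptive cells of the mucosa, take up fatty acids from the gut lumen, rebuild them into triglyceride and export this in chylomicrons, or burn part of it in mitochondria and peroxisomes. PPAR-alpha, a nuclear receptor that fatty acids activate, is a known regulator of many of these oxidation genes. The same cells take up carotenoids and cleave them to vitamin A.

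A gene's scaled signal is the deposited signal after each array was brought to the same trimmed mean of 500, with values under a floor of 100 raised to that floor before ratios were taken. A gene was measured where its mean scaled signal over the 4 arrays was at least 100, which held for 8036 of 12393 genes. Where 1 side is under the floor the ratio gives only the smallest fold possible, which the words "at least" mark. Scaling factors were 2.80 for A/J high-fat and 3.41 for C57BL/6J high-fat, and 58.6% and 58.7% of their probe sets reached the floor. The spiked control probe set CreX-3 gave 11988 and 21250, and the probe set for the 5′ end of 18S ribosomal RNA gave 84.4 and 1675, in that order. The 3′ to 5′ signal ratio was 0.942 and 0.999 for beta-actin and 0.806 and 0.783 for Gapdh. The part of these array differences in the gene ratios was not tested.

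By 2-fold or more, 155 genes (1.93% of those measured) were higher in A/J and 191 (2.38%) lower, of which 25 and 48 are bounds. Of the counted genes 44.8% were thus higher, and 76.1% with the arrays left unscaled, where the median of all genes moved by 0.28 on the log2 scale. The median log2 ratio of A/J over C57BL/6J was 0.04, and 6810 genes, 84.7%, lay within 1.5-fold. Of the 191 lower genes, 20 are on the exocrine pancreas list and are set apart, which leaves 171. The 171 can still hold pancreatic transcripts that are not on that list, such as the islet gene Ins2. At 4-fold or more, 22 genes were higher and 49 lower, or 31 lower without the genes of that list. Of the 155 higher genes, 47 had another measured probe set, and for 30 of these another probe set was at least 1.5-fold higher too. Of the 171 lower genes, 49 had another measured probe set, and 32 of these had 1 at least 1.5-fold lower. Across all pairs of probe sets of a gene the median difference of the log2 ratios was 0.27, and 17.6% of the 4318 pairs differed by at least 1.5-fold. Whether sequence differences between the strains under the probes change a signal was not tested.

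**Figure D1:**
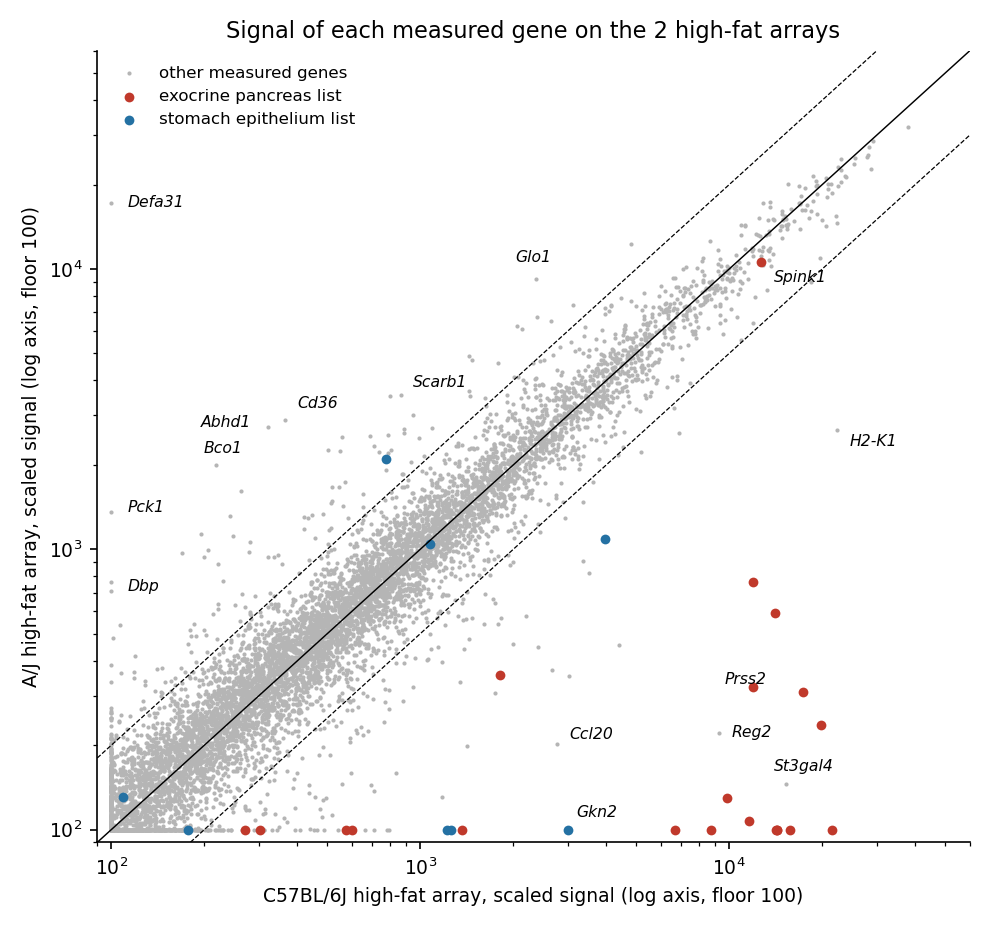
Scaled signal of each of the 8036 measured genes on the A/J high-fat array (vertical, log axis) against the C57BL/6J high-fat array (horizontal, log axis), with values under 100 drawn at 100. The solid line is equality and the dashed lines are 2-fold; exocrine pancreas genes (red) lie far below the line except Spink1, while St3gal4, Reg2 and H2-K1 lie below it and Bco1, Cd36, Pck1 and Defa31 above it.

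The pancreatic genes made the largest block of differences. These are digestive enzymes that acinar cells of the pancreas secrete, and their signals were low on the A/J high-fat array. Probe sets of the exocrine pancreas list held 0.0968% of the total signal on A/J high-fat and 2.0% on C57BL/6J high-fat, against 1.25% and 1.27% on A/J low-fat and C57BL/6J low-fat. A member of a list was counted where its ratio was 1.5-fold or more, which 8.37% of all measured genes reached on the higher side and 6.88% on the lower. Of 21 measured members of this marker list, 20 were lower in A/J by that rule and 0 higher, with a median log2 ratio of -5.81. The elastase gene Cela3b had scaled signals of 91.4 in A/J and 21518 in C57BL/6J, at least 215-fold lower in A/J. Trypsin (Prss2) had 309 and 17355, chymotrypsinogen (Ctrb1) 235 and 19873, and the lipase cofactor colipase (Clps) 764 and 11935. On the low-fat arrays the same list had a median of 0.11, and Prss2 gave 12521 and 11154. The exception on high-fat was the trypsin inhibitor Spink1, 1.19-fold lower. Whether these transcripts came from pancreas taken along with the gut was not tested. In a pooled tissue sample, fewer cells of a type and less RNA per cell cannot be told apart, here or in any result below.

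Genes of the stomach lining also differed. Of 8 measured members, A/J had 5 lower by 1.5-fold or more and 1 higher, with a median of -1.34. The gastrokine Gkn2, a secreted protein of stomach surface cells, had 39.2 in A/J and 3001 in C57BL/6J on high-fat, but 517 and 38.1 on low-fat. Its neighbour Gkn1 had 8.41 and 1220 on high-fat and was under the floor on both low-fat arrays. The trefoil factor Tff2 had 17.4 and 1260, and Tff1 had 1090 and 3965. The gastrokines were thus high on the C57BL/6J high-fat array, while Gkn2 on low-fat was the higher in A/J. Other stomach genes, namely Muc5ac, Pgc, Lipf, Atp4a and Gast, were under the floor on both high-fat arrays. The member counted as higher, the protease gene Ctse, was 2.71-fold higher in A/J in 1 probe set and had a log2 ratio of -0.61 in the other.

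Markers of the intestinal lining itself were close on both high-fat arrays. Of 12 measured enterocyte markers, 1 was counted as higher in A/J and 0 as lower, with a median of -0.15. The fatty acid binding protein Fabp2 had 23144 and 22558, and the lectin Lgals4 20464 and 22987. Proximal small intestine markers had a median of 0.03 over 12 genes, and Fabp1 was 25134 and 27886. The markers of the distal ileum Fabp6, Slc10a2 and Fgf15 and those of the colon Car1 and Hoxb13 were under the floor on both arrays. The colon marker Aqp8 was above it on both, at 144 in A/J and 115 in C57BL/6J, but too dim over the 4 arrays to count as measured. Cubn, part of the receptor for vitamin B12 with intrinsic factor and on the distal list, was 2.93-fold higher in A/J, at 2595 against 887. In all 3 of 8 measured distal markers were counted as higher and 0 as lower, with a median of 0.40. All 3 measured colon markers were counted as higher too. Among them, the chloride exchanger Slc26a3 had 3488 and 2235, with a log2 ratio of 0.38 in its other probe set. Another, Cdx2, is also the 1 enterocyte marker counted as higher, with a log2 ratio of 0.29 in its other probe set. The part of these marker differences in the other ratios was not tested. Goblet cell markers, 9 in number, had a median of -0.12, and 0 of them reached 1.5-fold either way. Of 4 measured liver markers 0 were counted as higher or lower, with a median of -0.08, and Cps1, an enzyme of the urea cycle that the gut also makes, had 6121 and 6452. Alb, Fga, Ahsg and Hpx were under the floor on both arrays, and the transthyretin gene Ttr, too dim over the 4 arrays to count as measured, had 11.5 in A/J and 206 in C57BL/6J.

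Carotenoid and retinoid genes differed strongly. Of 16 measured members, 6 were counted as higher in A/J and 2 as lower, with a median log2 ratio of 0.36 beside 0.04 for all genes. On the low-fat pair 8 were counted as higher and 2 as lower, with a median of 0.63. Bco1, which cleaves beta-carotene to retinal, had 1995 in A/J and 218 in C57BL/6J on high-fat, 9.14-fold, and 9248 and 662 on low-fat. The A/J signal was the higher on each diet, and both strains had less on high-fat. Adh4, a retinol-oxidising dehydrogenase, had 2530 and 690. Retsat, the retinol saturase, had 6521 and 2651, with a log2 ratio of 1.41 in its other probe set. Lrat, which esterifies retinol for export, had 516 and 200, and the retinaldehyde dehydrogenase Aldh1a1 had 6206 and 3424. Bco2, which cleaves carotenoids at another bond, went the other way, at 569 in A/J and 1824 in C57BL/6J, and at 801 and 1873 on low-fat. The abundant retinol binding protein Rbp2 was 18250 and 17045.

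The start site of Bco1 is shown because this gene had the largest ratio of its list and its window holds a motif of nuclear receptors. The sequence is from the RefSeq promoter table, build GRCm38.p6, which is a C57BL/6J reference. The window is chr8:117095615-117095914, plus strand, from 250 bases before the start to 50 bases after it. The motif searched on both strands was AGGTCANAGGTCA, a direct repeat with 1 spacer that PPAR and related receptors can bind, whose reverse is TGACCTNTGACCT. It occurred in 13 of 32851 windows of this length, 0.0396%. Capitals mark the match, which is a description of letters and not a shown site.
Bco1: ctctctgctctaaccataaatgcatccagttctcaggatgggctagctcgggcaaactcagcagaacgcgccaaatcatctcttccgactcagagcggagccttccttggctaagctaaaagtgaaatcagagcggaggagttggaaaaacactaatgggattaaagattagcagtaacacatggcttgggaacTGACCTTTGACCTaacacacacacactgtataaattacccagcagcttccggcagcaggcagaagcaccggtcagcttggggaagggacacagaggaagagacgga

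Fatty acid uptake was higher in A/J in a few genes and level in the abundant ones. Of 11 measured members 3 were counted as higher and 0 as lower, with a median of 0.05. On the low-fat pair 6 were counted as higher and 0 as lower, with a median of 0.63. Cd36, a fatty acid translocase, had 2891 in A/J and 364 in C57BL/6J on high-fat, 7.95-fold, and 1193 and 131 on low-fat. Its other probe sets gave log2 ratios of 2.03 and, with the C57BL/6J side under the floor, at least 1.67. Scarb1, the lipoprotein receptor that also takes up carotenoids, had 3553 and 863 on high-fat, 4.12-fold, and 9018 and 554 on low-fat, with 1.70 and 1.86 in its other probe sets. The acyl-CoA synthetase Slc27a2 had 5255 and 2829. The A/J signal of each of these genes was the higher on either diet.

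Fatty acid oxidation genes were higher in A/J over a wider set. Of 18 measured targets of PPAR-alpha, 9 were counted as higher and 0 as lower, with a median of 0.62. Of 21 mitochondrial beta-oxidation genes 5 were higher and 0 lower, with a median of 0.30, and of 20 peroxisomal genes 6 and 0, with a median of 0.40. On the low-fat pair the medians of these lists were 0.40, 0.15 and 0.60, in the same order. The enoyl-CoA isomerase gene Eci3, which is on none of the lists, was 2.21-fold lower in A/J, at 880 and 1948. The lists share members, among them Acadl and Cpt1a, so they are not separate evidence. Pdk4, the kinase that restrains pyruvate dehydrogenase, had 1331 in A/J and 483 in C57BL/6J, 2.76-fold, and 409 and 67.3 on low-fat. The glycerol channel Aqp3 had 1060 and 280, 3.78-fold, with 1.63 in its other measured probe set. The oxidation enzymes had smaller ratios: the dehydrogenase Acadl had 7280 and 3973, the carnitine palmitoyltransferase Cpt1a 3039 and 1764, and the peroxisomal thiolase Acaa1b 4741 and 2522. The thiolase Acaa2 was 1.75-fold higher, with log2 ratios of 0.08 and 1.12 in its other probe sets. The malic enzyme gene Me1 had 2712 and 1087 in the probe set used but 564 and 819 in the other, so its direction depends on the probe set. PPAR-alpha targets at the same level included Fabp1 and the pantetheinase Vnn1, at 2435 and 2612. Oxidative phosphorylation subunits on the list had 0 of 38 at least 1.5-fold apart either way, with a median of 0.07. The subunit genes Ndufa12 and Ndufb1, which are on none of the lists and so not in this count, were lower in A/J. Ndufa12 had 2588 and 6872, 2.65-fold, and Ndufb1 had 52.7 and 244, at least 2.44-fold.

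**Figure D2:**
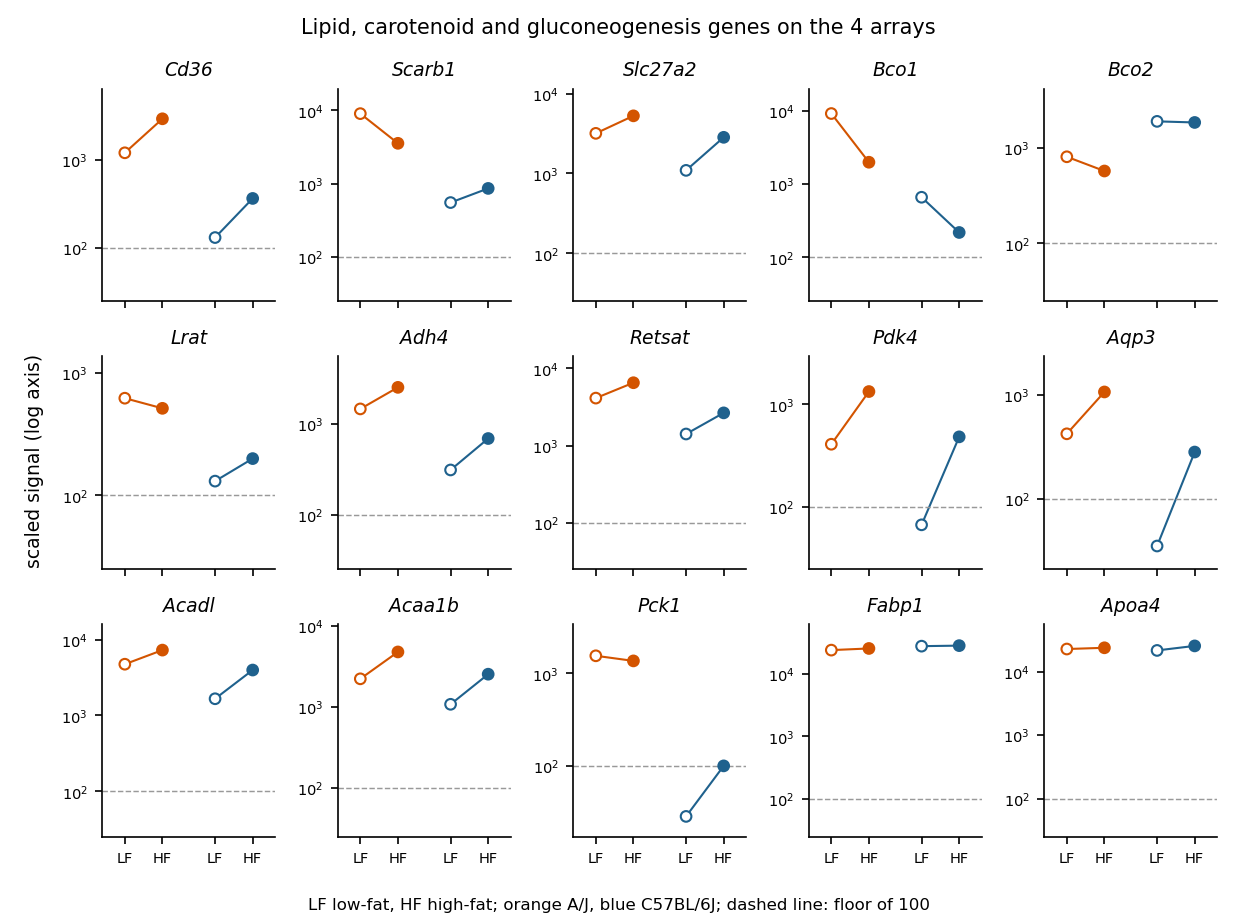
Scaled signal (vertical, log axis) of 15 lipid, carotenoid and gluconeogenesis genes on the 4 arrays, 1 point an array, with the low-fat (open) and high-fat (filled) array of each strain joined by a line (A/J orange, C57BL/6J blue). Cd36, Scarb1, Bco1, Pdk4, Aqp3 and Pck1 are higher in A/J on each diet, Bco2 is lower, and Fabp1 and Apoa4 lie close together.

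Triglyceride synthesis and chylomicron genes differed little. Of 23 synthesis and storage genes 3 were counted as higher in A/J and 0 as lower, with a median of 0.12. The acyltransferases Dgat1, at 15101 in A/J and 13859 in C57BL/6J, and Dgat2, at 6831 and 6351, were close. Mogat1, a monoacylglycerol acyltransferase that is not the main intestinal form, was at least 2.72-fold higher, at 272 against 56.6. G0s2, an inhibitor of triglyceride lipase, had 288 and 126 on high-fat and was under the floor on both low-fat arrays. Of 14 chylomicron assembly genes 0 were at least 1.5-fold apart either way, and Apoa4 had 23646 and 25319. Cholesterol synthesis genes had 1 higher and 2 lower of 19, with a median of -0.12. The sterol carrier Stard4 was 2.54-fold higher in A/J, at 3664 and 1440, and the synthesis enzymes Mvd and Sc5d were 2.07-fold and 1.96-fold lower. The other probe sets of Mvd and Sc5d had log2 ratios of -0.68 and -0.48, the latter under 1.5-fold. Of 12 sterol efflux and bile acid genes 2 were higher and 1 lower, the sterol exporter Abcg8 at 2512 and 1509 among the higher.

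Pck1, the enzyme that commits carbon to glucose synthesis, had 1361 in A/J and 99.6 in C57BL/6J, at least 13.6-fold higher, and 1545 and 28.3 on low-fat. Of 11 gluconeogenesis genes 3 were higher and 0 lower, with a median of 0.22. Fbp1, the fructose bisphosphatase, had 5473 and 3075, and the glycerol phosphate dehydrogenase Gpd1 had 7093 and 4087, with log2 ratios of -0.17 to 0.22 in its other measured probe sets. Sugar digestion and transport genes had 0 of 12 at least 1.5-fold apart either way, and the glucose carrier Slc5a1 had 12914 and 14776. Thus Pck1 stood far apart, while most other genes of sugar handling were near the same level.

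Some membrane carriers were higher in A/J. Among 174 measured genes of the solute carrier family, a group chosen after the values were seen, 13 were at least 2-fold higher and 2 lower. Of all measured genes, 1.93% were higher and 2.38% lower by that rule. On low-fat, 8 of the 13 were also at least 2-fold higher. The family's median log2 ratio was 0.16, against 0.04 for all genes, and being under 0.2 it is given no direction. The sodium-coupled sugar transporter relatives Slc5a4a and Slc5a4b had 1611 and 2516 in A/J and 263 and 557 in C57BL/6J. Slc2a9, a carrier of urate, had 884 and 221, and Slc22a13, an organic anion carrier, was 4.78-fold higher. Slc6a20a, the transporter of proline and other imino acids, had 4728 and 1475, and 4374 and 665 on low-fat. The peptide transporter Slc15a1 was lower in A/J, at 359 and 701. Of 11 brush border peptidases 2 were higher and 1 lower: the aminopeptidase Xpnpep2 had 936 and 200, and the activator of trypsinogen Tmprss15 (enteropeptidase) had 164 and 271.

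Conjugation enzymes and carboxylesterases were higher in A/J in 8 of 34 genes and lower in 0, with a median of 0.21. The glucuronosyltransferase Ugt2b5 had 1113 and 248, and 244 and 12.6 on low-fat. Its relative Ugt2b38 had 993 and 206, while Ugt2b34 was level at 6983 and 6779. The epoxide hydrolase Ephx1 was 2.09-fold higher. The cytochrome P450 list was split, with 2 of 13 higher and 3 lower. Cyp2c55 had 145 in A/J and 556 in C57BL/6J, and Cyp1a1, which ligands of the aryl hydrocarbon receptor induce, was under the floor in A/J and 206 in C57BL/6J. Glo1, which detoxifies methylglyoxal, had 9214 and 2375, and its 3 probe sets gave log2 ratios of 1.96 to 2.23. Abhd1, a predicted hydrolase, had 2721 and 321, and 2099 and 297 on low-fat.

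Genes of the circadian clock moved in both directions, with 5 of 15 higher in A/J and 4 lower. In the clock, Bmal1 (Arntl) and Clock or Npas2 drive Dbp, Tef and the Rev-erb receptors Nr1d1 and Nr1d2, and the Rev-erbs in turn repress Arntl, Npas2 and Nfil3. Dbp had 708 in A/J and 49.8 in C57BL/6J, at least 7.08-fold higher, with at least 2.22 on the log2 scale in its other probe set. Nr1d1 had 982 and 280, Nr1d2 had 1324 and 446, and Tef had 937 and 335. On the other side, Npas2 had 56.1 and 454, Nfil3 had 102 and 348, and Arntl, named here after its values were seen, had 308 and 653. The 4 higher genes just named and the 3 lower ones had the same direction on low-fat, where Dbp gave 910 and 32.9 and Npas2 66.1 and 317. Clock itself was level, at 332 and 284. The labels do not give the hour at which tissue was taken, and its part in these values was not tested.

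**Figure D3:**
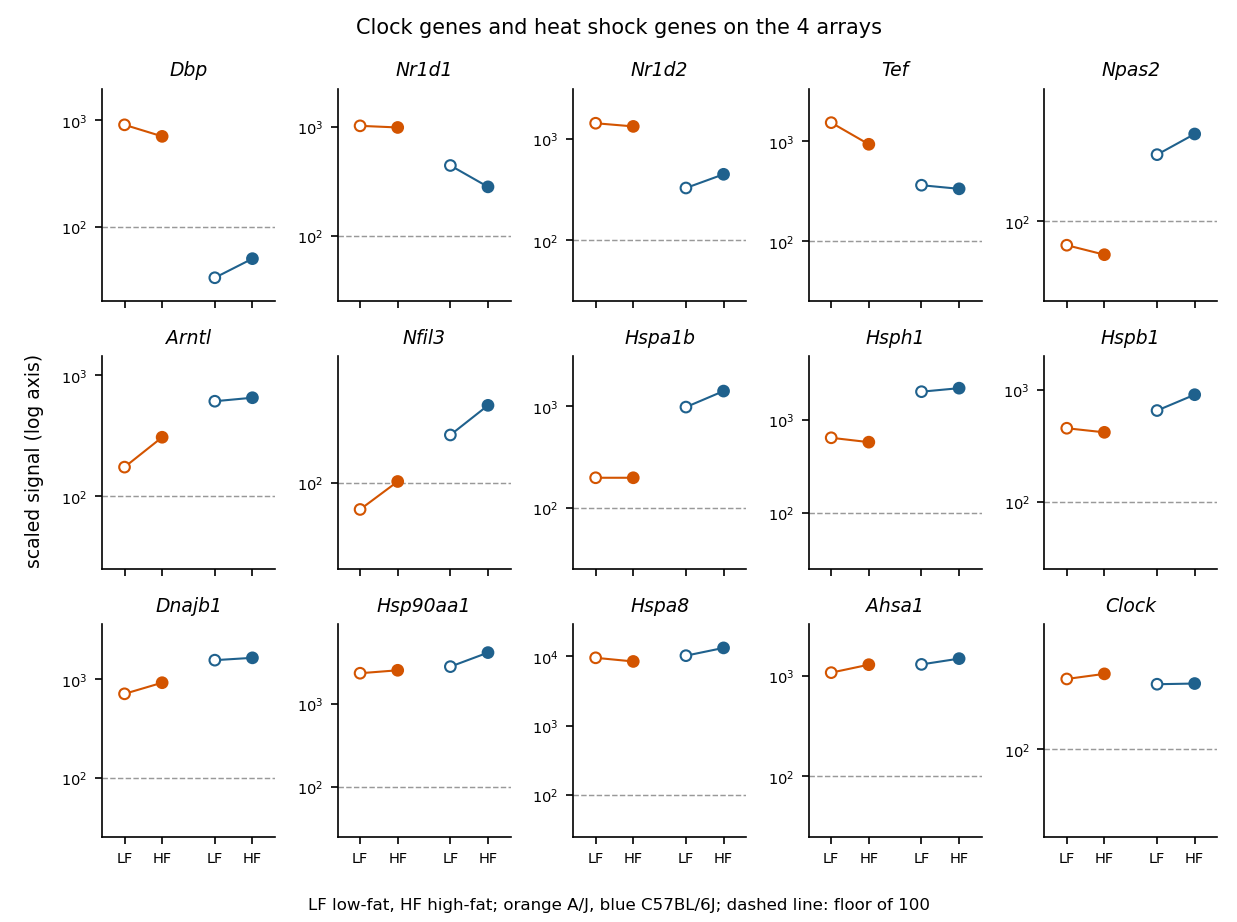
Scaled signal (vertical, log axis) of 7 clock genes followed by 7 heat shock genes, with Clock last, on the 4 arrays, 1 point an array, low-fat open and high-fat filled, A/J orange and C57BL/6J blue. Dbp, Nr1d1, Nr1d2 and Tef are higher in A/J, Npas2, Arntl, Nfil3, Hspa1b and Hsph1 are lower, and Clock and Ahsa1 lie close together.

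Heat shock proteins and co-chaperones were lower in A/J. Of 17 measured members, 11 were counted as lower and 0 as higher, with a median log2 ratio of -0.70, against -0.45 on the low-fat pair. These proteins refold or hold damaged proteins, and heat shock factor 1 induces them through elements in their promoters. Hspa1b, an inducible Hsp70, had 198 in A/J and 1417 in C57BL/6J on high-fat, 7.14-fold, and 198 and 986 on low-fat. Its other probe sets gave 144 and 706, and 80.2, which is under the floor, and 578. Its neighbour and near copy Hspa1a had 61.4 and 409, and the signals of the pair may be shared between their probe sets. Hsph1, a co-chaperone of Hsp70, had 579 and 2202, with -1.64 in its other probe set. The small heat shock protein Hspb1 was 2.17-fold lower, and the Hsp40 Dnajb1 1.79-fold lower with -0.68 in its other probe set. Hspa4 was close, at 1114 and 1297, and so was the Hsp90 co-chaperone Ahsa1, at 1283 and 1473. Immediate early genes, which handling of tissue can induce, had 0 of 18 at least 1.5-fold apart either way, with a median of 0.03. Unfolded protein response genes had 1 of 23 higher and 4 lower, with a median of -0.27 that became 0.0131 with the arrays left unscaled. The chaperone gene Creld2 was 2.02-fold lower and the kinase-like Trib3 2.37-fold higher.

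The promoters of lower heat shock genes are shown for the elements of their known activator. The motif was TTCNNGAA or GAANNTTC, each of which reads the same on both strands, and neighbouring matches can overlap. It occurred in 4946 of 32851 RefSeq windows of 300 bases, 15.1%, and in 10 of the 15 measured heat shock genes with a window. Those 10 were 6 of the 9 genes with a window that were counted as lower in A/J and 4 of the 6 that were not, the same share of each. The 15.1% is a share of windows and the 10 of 15 a share of genes, some with several windows, so these are unlike measures. A window of Hspd1 overlaps that of Hspe1 and holds the same matches. Windows run 250 bases before to 50 bases after the start in GRCm38.p6: Hspa1b chr17:34959189-34959488 and Hsph1 chr5:149636287-149636586 on the minus strand, and Chordc1, a co-chaperone 1.62-fold lower, chr9:18292017-18292316 on the plus strand. The Hspa1a window matched that of Hspa1b at 296 of 300 bases. Capitals mark the matches.
Hspa1b: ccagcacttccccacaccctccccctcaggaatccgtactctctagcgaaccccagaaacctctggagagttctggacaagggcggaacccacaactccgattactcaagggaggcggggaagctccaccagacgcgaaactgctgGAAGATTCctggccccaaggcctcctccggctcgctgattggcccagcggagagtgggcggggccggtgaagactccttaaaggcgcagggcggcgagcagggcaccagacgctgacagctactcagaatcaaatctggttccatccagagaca
Hsph1: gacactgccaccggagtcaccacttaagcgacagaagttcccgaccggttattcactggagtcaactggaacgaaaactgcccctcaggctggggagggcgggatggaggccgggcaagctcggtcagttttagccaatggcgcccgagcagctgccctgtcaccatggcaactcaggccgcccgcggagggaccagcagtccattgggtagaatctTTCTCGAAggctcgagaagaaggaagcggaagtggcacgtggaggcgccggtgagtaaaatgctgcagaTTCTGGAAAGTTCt
Chordc1: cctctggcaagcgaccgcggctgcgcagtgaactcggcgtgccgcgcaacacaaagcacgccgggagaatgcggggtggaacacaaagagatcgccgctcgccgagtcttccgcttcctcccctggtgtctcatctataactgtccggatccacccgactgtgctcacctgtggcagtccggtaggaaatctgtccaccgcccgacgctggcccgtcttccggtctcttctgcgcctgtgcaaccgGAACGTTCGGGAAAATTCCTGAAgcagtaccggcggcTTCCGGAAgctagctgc

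Of 15 antimicrobial and regenerating proteins 6 were counted as lower in A/J and 2 as higher, with a median of -0.29, against -0.97 on the low-fat pair. Reg2, a regenerating protein, had 222 in A/J and 9288 in C57BL/6J, 41.9-fold, and 602 and 7205 on low-fat. The bactericidal lectin Reg3g had 8957 and 18314, and Reg3d had 159 and 833. Nos2, the inducible nitric oxide synthase, had 5.89 and 540, and Duoxa2, the maturation factor of an epithelial oxidase, 3.92 and 312. The A/J signals of these last genes were under the floor on both diets. The protease inhibitor Slpi was 2.23-fold higher in A/J. Reg2 is also made by the pancreas, whose transcripts differed on the same arrays, and their part in the Reg2 signal was not tested.

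Interferon-induced genes were lower in A/J in 11 of 29 and higher in 1, with a median of -0.42, against -0.81 on the low-fat pair. Zbp1, a sensor of nucleic acids, had 405 and 1059, and Trim30a had 286 and 880. The chemokine Cxcl10 had 118 and 314, and Ifit2 59.4 and 229. On the low-fat arrays Ifit2 was 273 and 1157. Rsad2, an antiviral enzyme, was level at 2233 and 2361. Of 17 chemokines and receptors 4 were lower and 1 higher. Ccl20, which draws cells bearing Ccr6 to lymphoid follicles, had 203 in A/J and 2768 in C57BL/6J, 13.7-fold, but 482 and 1040 on low-fat. Ccr6 itself was 1.53-fold higher in A/J, at 178 and 116. Tifa, an adaptor in the response to bacterial sugars, had 455 and 4382, and 970 and 5798 on low-fat.

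Class I histocompatibility genes split by member, with 2 of 17 higher and 4 lower; the strains are known to carry different haplotypes of this region. H2-K1, a classical class I gene, had 2667 in A/J and 22298 in C57BL/6J, 8.36-fold, and its other probe sets gave log2 ratios from -2.32 to -0.13. H2-Q2 had 3.08 and 707. Probe sets annotated to several of these genes went both ways. That of H2-Q2, H2-D1 and Gm38417 had 378 in A/J and 33.4 in C57BL/6J, and that of H2-Q5 and H2-K1 had 577 and 129. That of H2-K1 and H2-D1 had 1342 and 7831. The direction in this region thus depends on the probe set. The non-classical gene H2-T3 was higher in A/J, at 2263 and 504 and at 2224 and 42.0 in its other probe set. H2-T18, which is on none of the lists and so not in this count, was also higher, at 1138 and 195. The non-classical gene H2-Q10 was lower, at 567 and 1047. The peptide transporter subunits also split, with Tap1 1.98-fold lower and Tap2 1.99-fold higher. Class II genes had 2 of 8 higher and 0 lower, and Cd74, the invariant chain, had 8205 and 5306.

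Lymphocyte markers differed by type. Of 12 B and plasma cell markers 5 were counted as higher in A/J and 1 as lower. The B cell surface gene Ms4a1 had 362 and 107, and Cd79b had 227 and 119, against 219 and 185 and 199 and 232 on low-fat. The abundant heavy chain Igha of plasma cells was level, at 28698 and 29176. Of 16 T cell and intraepithelial lymphocyte markers 1 was higher and 2 lower, with a median of -0.01, against -0.70 on low-fat. The granzyme gene Gzma, made by cytotoxic lymphocytes, had 907 in A/J and 3352 in C57BL/6J, and 810 and 5190 on low-fat. Macrophage and dendritic cell markers had 0 of 16 at least 1.5-fold apart either way.

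Markers of the other cells of the gut wall were mostly close. Of 11 smooth muscle markers 2 were counted as higher in A/J and 0 as lower, and the filament gene Des had 262 in A/J and 28.0 in C57BL/6J but 129 and 99.6 in its other probe set. Of 12 fibroblast markers 1 was higher and 1 lower, and the collagen gene Col1a2 had 959 on both arrays. Endothelial markers had 1 of 10 higher and 0 lower, the angiopoietin receptor Tek at 187 and 77.1. The mast cell protease Mcpt2 had 348 and 119 on high-fat and 381 and 79.3 on low-fat, while most other mast cell genes were under the floor. Of 16 enteroendocrine markers 1 was higher, the hormone neurotensin (Nts) at 1898 and 1014, and 0 were lower. Proliferation genes had 0 of 26 higher and 1 lower, the mitotic kinase Aurka at 209 and 336, with a median of -0.07.

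Defa31, an alpha-defensin of Paneth cells, had 17160 in A/J and 51.5 in C57BL/6J on high-fat, at least 172-fold, and 214 and 5.84 on low-fat. It was bright on the A/J high-fat array alone. It had 1 probe set, and near copies of this family may share its signal. Other Paneth markers did not follow: the lysozyme Lyz1 had 11670 and 13344, and Mmp7, the protease that activates defensins, 1046 and 1206.

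Among 27 glycosyltransferases of mucosal glycans 2 were higher in A/J and 3 lower, with a median of 0.05, and 1 gene stood far apart. St3gal4, which adds sialic acid to galactose, had 145 in A/J and 15286 in C57BL/6J, 105-fold, and 151 and 17766 on low-fat. Its signal thus separated the strains on each diet. It rested on 1 probe set. The sialyltransferase St6galnac2 was 2.88-fold lower in A/J, and St3gal6 1.68-fold higher. B4galnt2 was level in the probe set used, at 8544 and 8581, but 1.64-fold lower in A/J in its other, at 1444 and 2373.

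**Figure D4:**
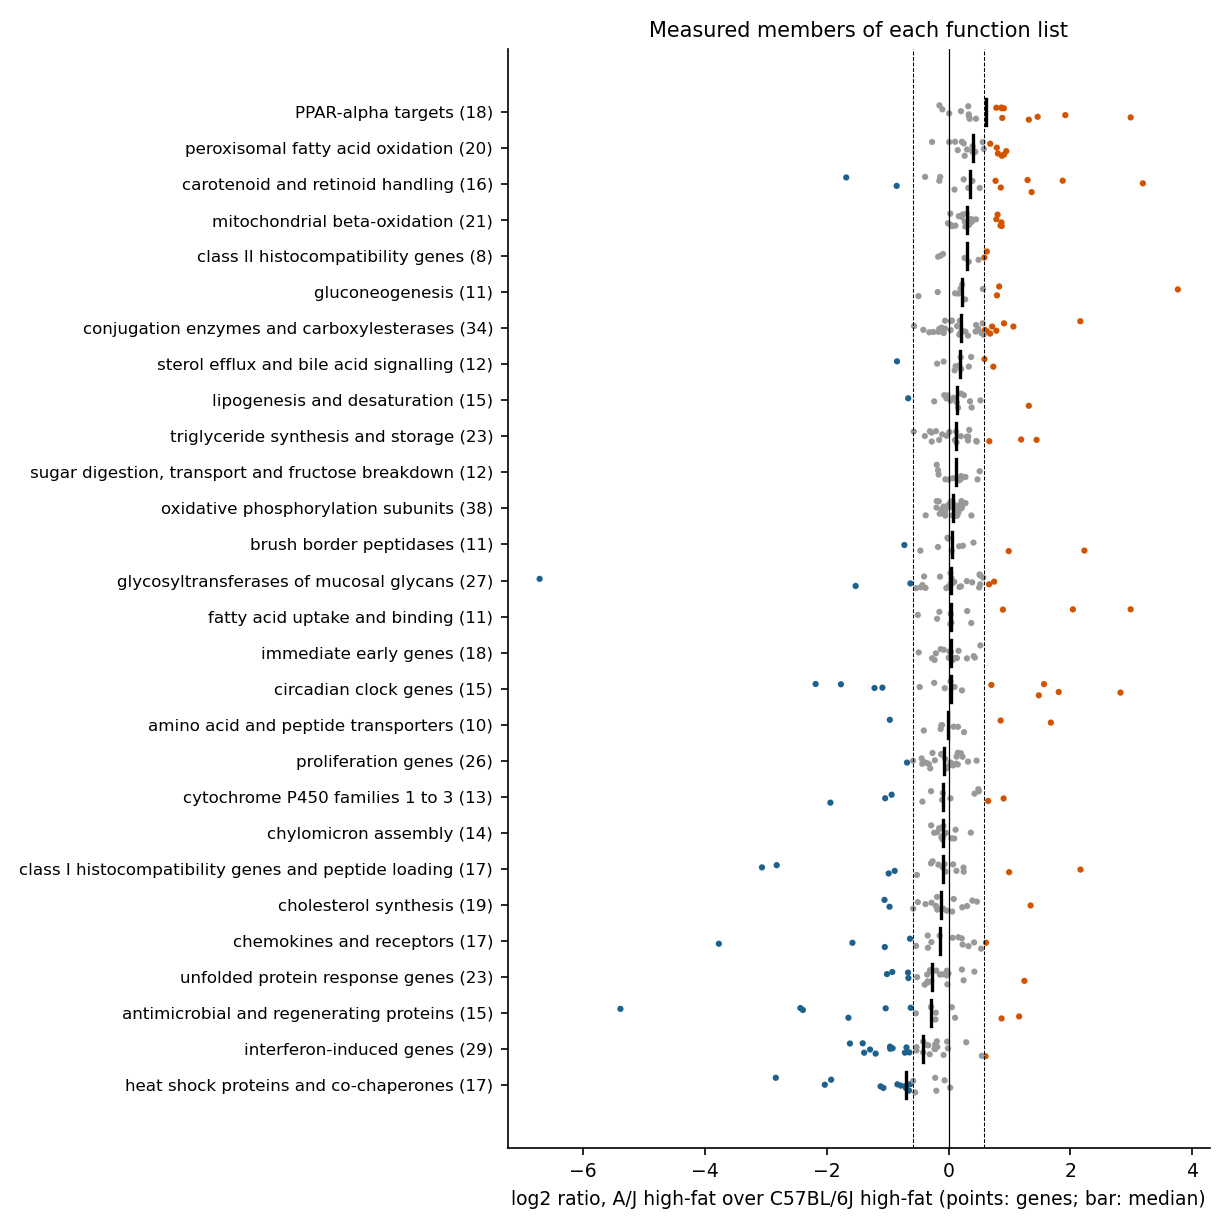
Log2 ratio of A/J high-fat over C57BL/6J high-fat (horizontal) for each measured member of the 28 function lists, ordered by median, with the number measured in brackets. Points are genes (orange at least 1.5-fold higher in A/J, blue at least 1.5-fold lower, grey between), black bars are medians and dashed lines 1.5-fold; PPAR-alpha targets have the highest median at 0.62 and heat shock proteins the lowest at -0.70.

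Several abundant genes on none of the lists separated the strains on each diet. Atp6v0e2, a subunit of the proton pump of vesicles, had 1316 in A/J and 241 in C57BL/6J on high-fat and 1171 and 254 on low-fat. Cnnm4, a magnesium transporter, had 537 and 106, and 485 and 175 on low-fat. Wdfy1, a protein of endosomes, was 5.73-fold higher in A/J, with log2 ratios of 0.90 and 1.78 in its other probe sets. Lower in A/J were Rps4l, a relative of the ribosomal protein S4, at 131 and 1175, and the death-associated protein gene Dap, at 448 and 2402. Mbl2, a mannose-binding lectin of innate defence, had 90.5 and 489, and 293 and 1764 on low-fat. Each of these genes kept its direction on low-fat, where Rps4l gave 163 and 1739 and Dap 623 and 2430.

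The low-fat pair, which shares no array with the high-fat pair, had 241 genes (3%) higher in A/J by 2-fold or more and 212 (2.64%) lower. Of the 155 genes higher on high-fat, 90 were also at least 2-fold higher on low-fat, which is 58.1% of the high-fat list and 37.3% of the low-fat list. Of the 171 lower genes outside the pancreas list, 96 were also lower, 56.1% of the high-fat list and 45.5% of the low-fat list. In direction alone, 142 of the 155 and 159 of the 171 had a low-fat ratio on the same side. Within 1.5-fold on low-fat were 36 of the higher genes and 40 of the lower genes outside the pancreas list. Among them was Cyp2c55, at 266 and 288 on low-fat. Genes under the floor on both low-fat arrays, such as G0s2, also fall in these numbers, since their ratio is set by the floor. Genes are not independent replicates. Across 8036 of them, Pearson's r between the strain ratios of the diets was 0.52, and 0.59 over the 8015 genes outside the pancreas list. Slc5a8, a carrier of short-chain fatty acids, had 336 and 83.2 on high-fat and 105 and 95.6 on low-fat. The difference between the diets in a gene's strain ratio was not tested, since it rests on 4 single arrays.

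**Figure D5:**
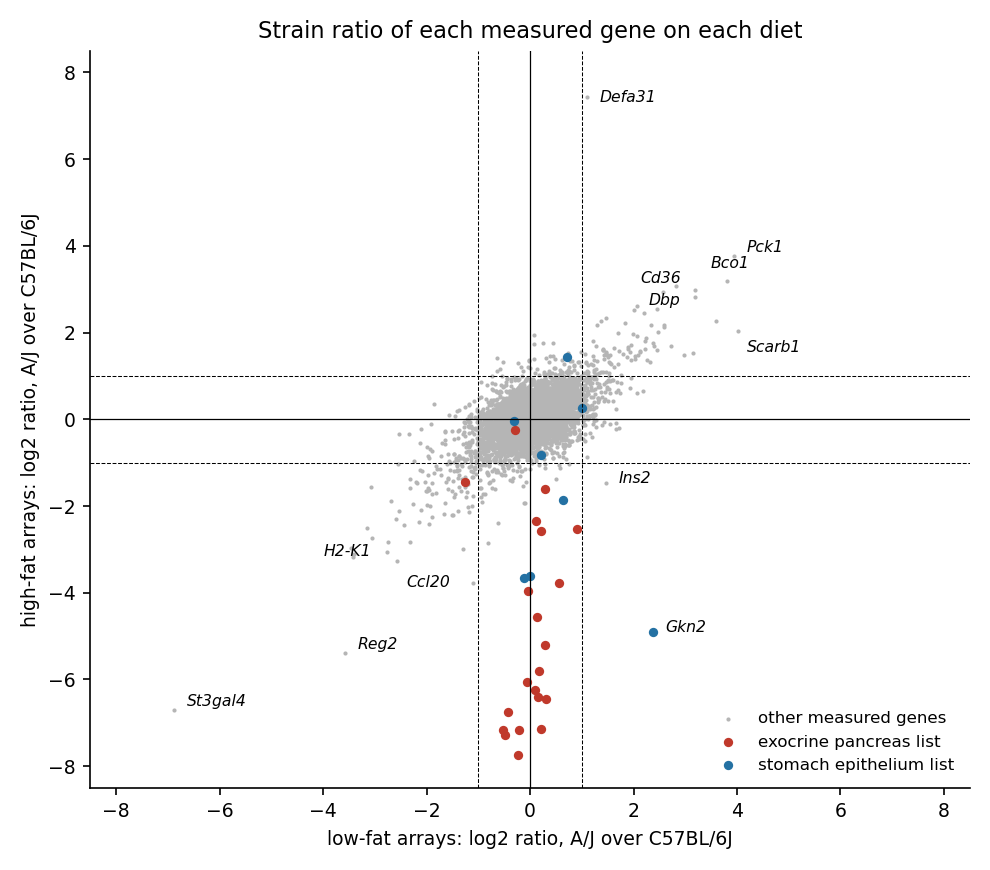
Log2 ratio of A/J over C57BL/6J on the high-fat arrays (vertical) against the low-fat arrays (horizontal) for each of the 8036 measured genes, with dashed lines at 2-fold. Bco1, Pck1 and St3gal4 lie far out on both axes, exocrine pancreas genes (red) lie low on the vertical axis and near 0 on the horizontal one, and Gkn2 lies in opposite directions on the diets.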

How the data were processed

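Each of the 4 groups gave 1 pool of mucosal RNA for 1 Affymetrix array (Mouse Expression Array 430A model). Per the labels' protocols, the authors used Microarray Suite 5.0 with default settings to turn differences between matched and mismatched probes into an intensity, and deposited that linear intensity. A scaling target is not stated. Of 22690 probe sets, 64 controls were left out of gene ratios, and of the others the 20380 that the platform annotation gives 1 gene were used, 691 with several genes and 1555 with none being kept apart. Symbols were checked by gene number against RefSeq, where 20351 probe sets matched and 0 symbols changed.

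Each array was scaled so that the mean of its probe sets other than controls, trimmed by 2% at each end, was 500. Values under 100 were set to 100 and log2 ratios of A/J over C57BL/6J were taken. The probe set with the highest mean over the 4 arrays stood for a gene. Genes were counted at 2-fold and list members at 1.5-fold, with no test, and list medians under 0.2 in size were given no direction. The scripts, tested on simulated data, ran in Python 3.11.15 with the packages pandas 2.3.3, numpy 2.4.6, scipy 1.17.1 and, for figures, matplotlib 3.10.9.

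The 48 gene lists (28 of function, 20 of markers) were written from general knowledge; 829 of their 971 genes were on the array and 662 were measured, and the red blood cell list had none. The comparison, the lists and the genes named were chosen with earlier results of these data known. Genes were named from the largest ratios with both signals above the floor, the brightest bounds, the largest and the level members of each list, the pancreatic genes, the genes that differed the same way on both diets or in opposite ways, and those whose ratio differed most between the diets. Arntl, Trim12a, Slfn4, Ly6m, Ly6g2, Chordc1, Ndufa12, Ndufb1, Eci3, Aqp8 and the marker genes under the floor fall outside that rule. They were chosen after their values were seen. The alternatives were quantile normalization, no scaling, floors of 50 and 200, a pseudocount of 50, the mean of a gene's probe sets, leaving out shared probe sets or pancreatic genes, no filter, and a filter on the high-fat arrays.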

Additional observations from a re-analysis of the deposited data

Results flagged for a closer look

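The strain ratio of the gastrokine Gkn2 had opposite directions on the diets, with a log2 ratio of A/J over C57BL/6J of -4.91 on high-fat, a bound, and 2.37 on low-fat, also a bound. Its scaled signals were 39.2 and 3001 on high-fat and 517 and 38.1 on low-fat. The insulin gene Ins2, a product of pancreatic islets, did so too, with -1.46 on high-fat, a bound from signals of 14.0 and 275, and 1.46 on low-fat from 401 and 146. These were the only 2 of the 8036 measured genes at least 2-fold in opposite directions. The difference between the diets was not tested.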

How the results depend on the processing

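With the arrays left unscaled, 383 genes were higher in A/J by 2-fold or more and 120 lower, so that 76.1% of the counted genes were higher against 44.8% after scaling, and the median of all genes moved by 0.28. Under the other alternatives the counts lay within 1.5 times of 155 and 191, at 198 and 242 with a floor of 50 and 104 and 137 with a floor of 200. Of the log2 ratios of named genes under the alternatives, 2534 moved by under 1.5-fold, 121 moved by more and 2 reversed: Ctse to -0.61 and Me1 to -0.54 where shared probe sets were left out. Of the list medians 462 moved by under 1.5-fold, 6 by more and 1 reversed, the unfolded protein response at 0.0131 unscaled. No paired analysis was possible because each group had 1 array. Signals under the floor on 1 array make bounds of 487 ratios, with 25 among the genes counted as higher and 48 among those counted as lower.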

Other observations

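Some genes at least 2-fold apart on the high-fat arrays are neighbours in the genome among the measured genes, a pattern chosen after the values were seen. Of 8032 measured genes placed in RefSeq's order, 346 were at least 2-fold apart. Of these, 49 fell in 23 runs of neighbours, 21 of them pairs. The pairs include the pancreatic Pnliprp1 and Pnliprp2, the gastrokines Gkn1 and Gkn2, and the near copies Hspa1a and Hspa1b. How many runs would arise without any link between neighbours was not tested. The longest run held 4 genes, the tripartite motif genes Trim34a, Trim12a, Trim30a and Trim30d, all lower in A/J. Trim30d had 137 in A/J and 710 in C57BL/6J on high-fat and 242 and 1078 on low-fat. Trim34a had 20.5 and 662 on high-fat and 79.9 and 835 on low-fat. The Schlafen genes Slfn2 and Slfn4 were 5.65-fold and 2.94-fold lower, and Ly6m and Ly6g2 were 2.75-fold and 2.43-fold lower. The sugar transporter relatives Slc5a4a and Slc5a4b form another pair.

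Of 1077 measured probe sets with several genes or none in the platform annotation, 26 were higher in A/J by 2-fold or more and 43 lower. Among the 8036 measured genes these counts were 155 and 191. Pancreatic probe sets were not set apart here. The lower ones include that of Cela3a and Cela3b, at 78.5 in A/J and 20435 in C57BL/6J, and that of the Amy2a genes, at 84.1 and 13742. A probe set with no gene name had 14553 in A/J and 121 in C57BL/6J on high-fat, and 584 and 200 on low-fat. Of the 155 higher and 191 lower genes, 125 and 135 were on none of the lists. The lists hold only 662 of the 8036 measured genes, and 1.93% and 2.38% of all measured genes were higher and lower. Bst1, an ectoenzyme of stromal and immune cells, had 352 and 3021, and 92.2, which is under the floor, and 761 in its other probe set. The tissue kallikrein Klk1 had 372 and 2673 on high-fat and 1167 and 2047 on low-fat. The part of pancreatic transcripts in the Klk1 signal was not tested. Cap1, an actin-binding protein, had 3518 and 798, with a log2 ratio of 2.60 in its other probe set.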
